A study of Mus musculus with 20 samples.

Results

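The genes described here are 10 mouse genes of metal and oxidant defence: the metallothioneins Mt1, Mt2 and Mt3, the transcription factor gene Nfe2l2 with its target genes Nqo1, Gclc and Gclm, and the peroxide and superoxide enzyme genes Gpx1, Sod1 and Sod2. They were taken by symbol from a list that was drawn up with earlier results of these data known, and matched to the 46078 Ensembl genes of the count tables. All 10 were found, each passed the filter on low counts in every comparison, and the lowest count of any of them in any library was 50, for Nqo1.

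Polyadenylated RNA was sequenced from brains of aged (18 months) male C57BL/6J wild-type mice, 7 weeks after a DH stroke, in which the distal middle cerebral artery is occluded and the animal is kept in low oxygen. All 4 groups had the stroke. The mice received either vehicle (sterile PBS) or 4 g/kg HPBCD, a cyclodextrin (a ring of sugars) that can carry cholesterol in its cavity, injected under the skin 3 times a week for 6 weeks from 1 week after the stroke. From each mouse the tissue next to the infarct, with the infarct itself removed, gave a peri-infarct library, and the matching tissue of the other hemisphere gave a contralateral library. This makes 4 groups of 5 libraries from 10 animals. Libraries of both regions with the same replicate number within a treatment share an identifier in the deposited names, which is taken here as the animal. The treatment labels could not be settled from these files, and an exchange of them was not tested. In the peri-infarct group labelled HPBCD, 5 of 10 reactive astrocyte markers and 8 of 8 fibroblast and meninges markers were higher and 6 of 10 neuron markers lower than in the group labelled vehicle, and none of 10 microglia and macrophage markers passed. Every direction between treatments, and which treatment a region comparison belongs to, rests on the labels and would turn over if they were exchanged.

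Metallothioneins are small cysteine-rich proteins that bind zinc and copper and also react with oxidants. Mt1 and Mt2 are made mainly by glia in the brain and are induced by zinc through the sensor MTF1, by glucocorticoids and by inflammatory cytokines, whereas Mt3 is a brain form known from neurons and astrocytes. NRF2, encoded by Nfe2l2, is held by KEAP1 and degraded until oxidants or electrophiles release it. It then pairs with small MAF proteins and binds antioxidant response elements of genes such as Nqo1, which encodes a quinone reductase, and Gclc and Gclm, the catalytic and modifier subunits of the enzyme that starts glutathione synthesis. Superoxide is turned into peroxide by the cytosolic SOD1 and the mitochondrial SOD2, and GPX1 reduces peroxide with glutathione.

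The metallothionein genes are neighbours on chromosome 8 (GRCm38, GENCODE M21, plus strand), with Mt3 at chr8:94152607-94154146, Mt2 at chr8:94172664-94173568 and Mt1 at chr8:94179082-94180327. Nqo1 is on the minus strand of the same chromosome at chr8:107388225-107403206. Nfe2l2 lies at chr2:75675513-75704641 (minus strand), Gclc at chr9:77754535-77794485, Gclm at chr3:122245557-122270732, Gpx1 at chr9:108338903-108340343, Sod1 at chr16:90220754-90226329 and Sod2 at chr17:13006846-13040063 (all plus strand). The counts cover the exons of each gene. Exons of Gclm overlap Gm6061 on the same strand over 244 bp and Gm17494 on the other strand over 296 bp, and exons of Mt2 overlap Gm45774 on the other strand over 432 bp, so the counts of Gclm and Mt2 carry an uncertainty that was not resolved. The strand setting of the counting was not given in the sources used here.

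The promoter windows below show what the metallothionein genes and the NRF2 genes hold just before their start sites, since these are the genes that the results turn on. Each is the 250 bases before the start in RefSeq (GRCm38.p6), 5′ to 3′ on the strand of the gene. Capitals mark, in Mt1, Mt2 and Mt3, the metal response element core (TGCACNC or TGCGCNC) and, in Nfe2l2 and Gclm, the antioxidant response element core (TGACNNNGC), each searched on both strands. The windows lie at chr8:94178839-94179088 (Mt1), chr8:94172368-94172617 (Mt2), chr8:94152357-94152606 (Mt3), chr2:75704664-75704913 (Nfe2l2) and chr3:122245307-122245556 (Gclm).
Mt1: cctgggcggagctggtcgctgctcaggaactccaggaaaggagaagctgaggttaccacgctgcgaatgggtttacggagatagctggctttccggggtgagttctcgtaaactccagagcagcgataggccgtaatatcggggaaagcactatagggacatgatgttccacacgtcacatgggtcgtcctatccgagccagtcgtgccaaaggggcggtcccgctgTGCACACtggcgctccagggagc
Mt2: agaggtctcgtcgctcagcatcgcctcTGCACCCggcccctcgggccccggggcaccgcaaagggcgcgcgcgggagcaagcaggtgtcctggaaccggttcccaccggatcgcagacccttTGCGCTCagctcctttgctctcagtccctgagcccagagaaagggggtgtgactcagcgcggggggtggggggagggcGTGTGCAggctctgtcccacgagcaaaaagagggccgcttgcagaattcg
Mt3: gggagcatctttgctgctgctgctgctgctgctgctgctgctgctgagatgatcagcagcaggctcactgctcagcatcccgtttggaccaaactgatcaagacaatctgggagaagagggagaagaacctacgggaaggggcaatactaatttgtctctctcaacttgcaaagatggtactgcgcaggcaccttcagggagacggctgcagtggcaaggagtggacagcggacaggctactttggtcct
Nfe2l2: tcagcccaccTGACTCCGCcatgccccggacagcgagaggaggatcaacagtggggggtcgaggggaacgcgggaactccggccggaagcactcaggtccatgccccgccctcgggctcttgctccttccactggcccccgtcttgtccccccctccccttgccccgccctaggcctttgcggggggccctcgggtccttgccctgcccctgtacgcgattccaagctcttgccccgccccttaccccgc
Gclm: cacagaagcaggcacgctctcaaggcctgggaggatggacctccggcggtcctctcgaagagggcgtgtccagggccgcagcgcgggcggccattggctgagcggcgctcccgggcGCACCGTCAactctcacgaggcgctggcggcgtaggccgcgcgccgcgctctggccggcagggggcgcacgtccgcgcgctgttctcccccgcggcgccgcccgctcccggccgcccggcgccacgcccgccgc
The metal response core was found 1 time in the window of Mt1, 3 times in that of Mt2 and not in that of Mt3. With the 50 bases after the start added, the numbers were 3, 4 and 1. Of 32851 RefSeq windows of 250 bases, 21.4% held this core at least 1 time and 1.26% held it 3 or more times. The antioxidant core was found 1 time each in the windows of Mt2, Nfe2l2, Gclm and Sod1, against 10.2% of all windows, and the match in Mt2 also spells the AP-1 letters TGACTCA. In Gclm, 2 metal cores were found too, and 1 of them overlaps the antioxidant core. The windows of Nqo1, Gpx1 and Sod2 held neither core. Of the 10 genes, 9 matched an entry, and Gclc is named only. A match is a description of letters, and no match says only that the letters are not in this window.

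Gene counts per library were 14445021 to 22171627, so a floor of 3 counts is worth 0.135 to 0.208 CPM, the unit of level used here (gene counts brought to a common library total, with TMM factors between libraries). The floor covers counting error only. Marker sums set the tissue apart by region, in comparisons that called 10.5% of all genes higher and 9.7% lower in vehicle and 30.3% and 24.3% in HPBCD mice. The summed level of 10 reactive astrocyte markers had medians of 299 CPM in vehicle contralateral and 226 CPM in HPBCD contralateral tissue, against 2417 CPM (range 749.6 to 3770) in vehicle peri-infarct and 4468 CPM (range 3287 to 6693) in HPBCD peri-infarct tissue. All 10 were higher in the peri-infarct tissue of both treatments, and so were all 10 microglia and macrophage markers, whose summed medians were 522, 1348, 475 and 2166 CPM for vehicle contralateral, vehicle peri-infarct, HPBCD contralateral and HPBCD peri-infarct tissue. Between the contralateral groups only 8 of the 10 reactive astrocyte markers passed the filter. Calls of markers that passed it only through the peri-infarct libraries carry no weight of their own. Of 10 neuron markers, 4 were lower in vehicle and 9 in HPBCD peri-infarct tissue. Their summed medians were 11280, 8206, 12500 and 5481 CPM in the same order of groups. All 8 oligodendrocyte markers were higher in the peri-infarct tissue of HPBCD mice and none of the 8 passed in vehicle mice, with summed medians of 11610, 9403, 6872 and 14510 CPM in that order too. The difference of the region effects passed for 3 of these 8 markers (Mbp, Mobp and Cldn11). Of 8 fibroblast and meninges markers, 2 were higher in vehicle and 8 in HPBCD peri-infarct tissue. Their summed medians were 114.2, 239.7, 143.3 and 747.3 CPM. Ependyma and choroid plexus markers were higher for 2 of 6 tested in vehicle and 5 of 8 in HPBCD mice (10.11, 49.4, 12.5 and 248.7 CPM). Of 10 astrocyte markers, 4 and 6 were higher, and 1 was lower in HPBCD mice. In peri-infarct tissue between the treatments, beside the marker counts given above, 12.4% of all genes were called higher and 9% lower. Also higher there were 2 of 8 oligodendrocyte markers, 5 of 8 ependyma and choroid plexus markers, 3 of 10 astrocyte markers, 2 of 8 endothelium markers and all 3 erythrocyte markers tested (of 5 listed). Between the vehicle regions only 6 of the ependyma and choroid plexus and 2 of the erythrocyte markers passed the filter. Markers that passed it only through the HPBCD peri-infarct libraries carry no weight of their own. No marker of the lists was without a count in all libraries of a group. In the ependyma and choroid plexus markers both libraries of HPBCD animal 3 lay above the rest of their groups, contralateral replicate 3 at 641.6 CPM against 7.16 to 14.4 CPM and peri-infarct replicate 3 at 811.3 CPM against 111 to 272.9 CPM in the other 4. In bulk tissue, more RNA per cell and more cells of a type cannot be told apart. The part of these cell type differences in the results that follow was not tested.

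**Figure D1:**
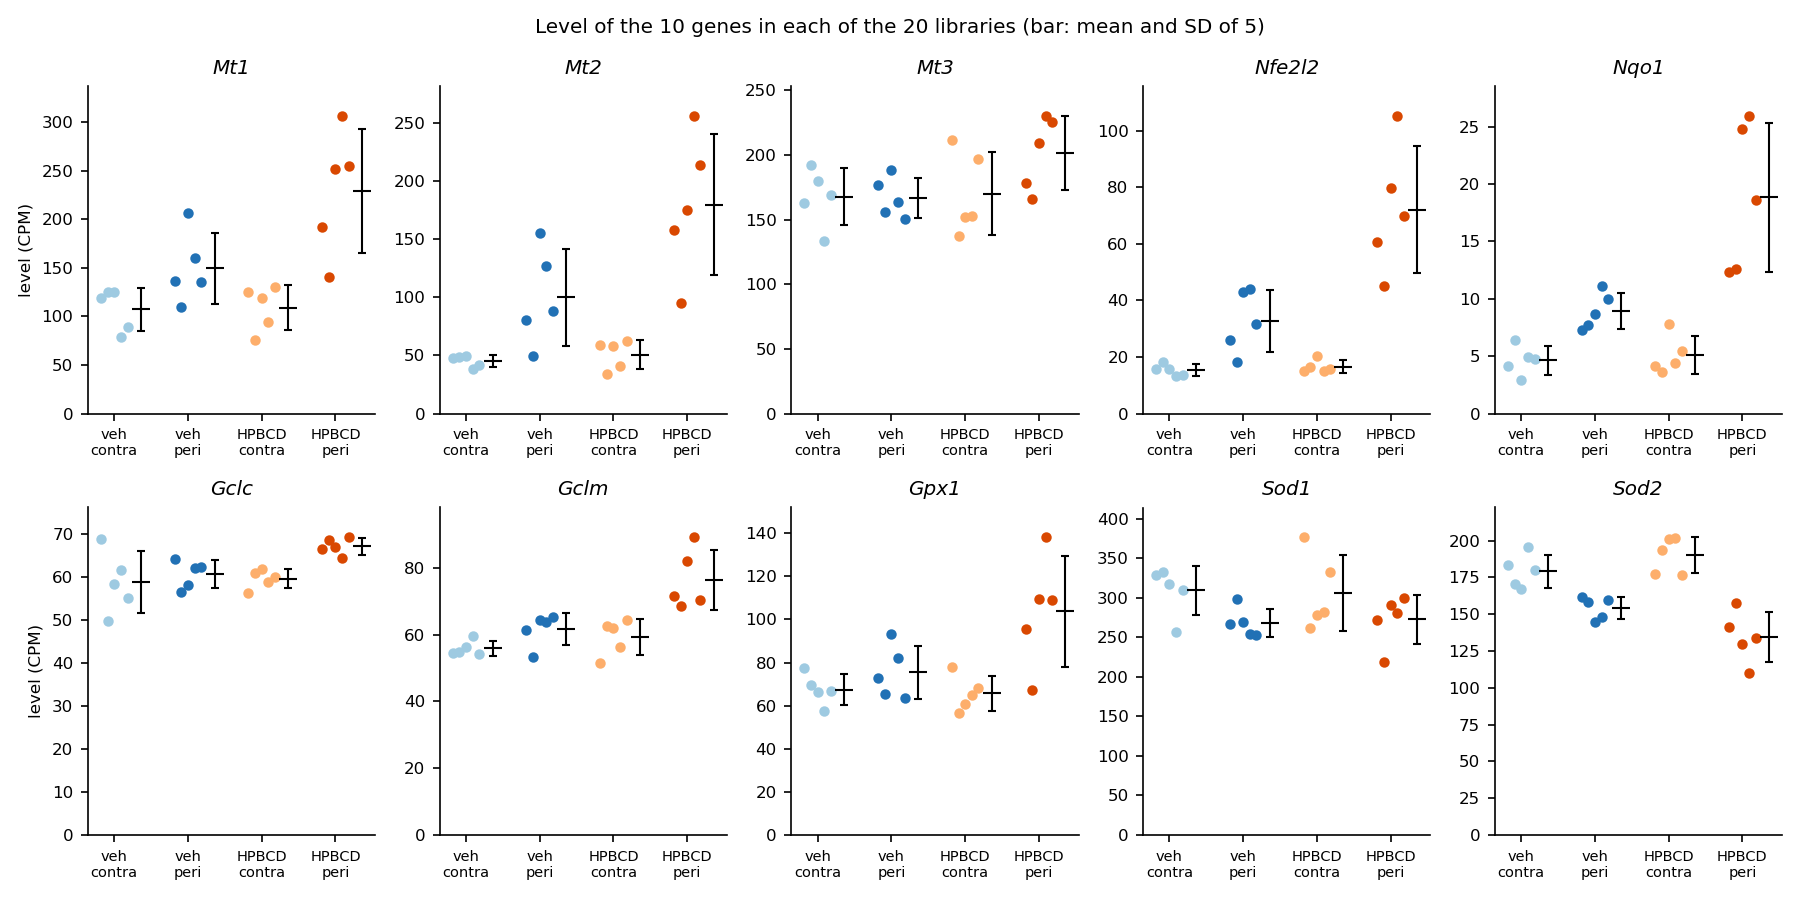
Level of each of the 10 genes (y axis, CPM, from 0) in the 20 libraries, in 4 groups of 5 from vehicle (veh) and HPBCD mice, contralateral (contra) and peri-infarct (peri). Points are libraries in the order of replicates 1 to 5, and black bars are the mean and SD. Mt2, Nfe2l2 and Nqo1 are highest in HPBCD peri-infarct tissue, Mt3 and Gclc differ little, and Sod2 is lowest there.

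The first question was whether peri-infarct tissue of vehicle-treated mice differed from the contralateral tissue in these genes. It did for 4 of them: Mt2, Nfe2l2 and Nqo1 rose and Sod2 fell. The edgeR quasi-likelihood test (adjusted p under 0.05 over 15801 genes) called 20.2% of all genes in this comparison, 10.5% higher and 9.7% lower. This share depends on single libraries: with 1 left out, 2000 to 3920 genes were called, against 3195 here. The median log2 fold change was 0.14 over the 10 genes and 0.01 over all genes tested. In HPBCD-treated mice 8 of the 10 were called, 7 higher (Mt1, Mt2, Nfe2l2, Nqo1, Gclc, Gclm and Gpx1) and 1 lower (Sod2), where 54.6% of 16047 genes were called, 30.3% higher and 24.3% lower. There the medians were 0.51 and 0.03. With a background this high, the sizes are given gene by gene. The comparisons share libraries with each other (each peri-infarct group enters a region and a treatment comparison), so their values are set side by side and are not independent.

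**Figure D2:**
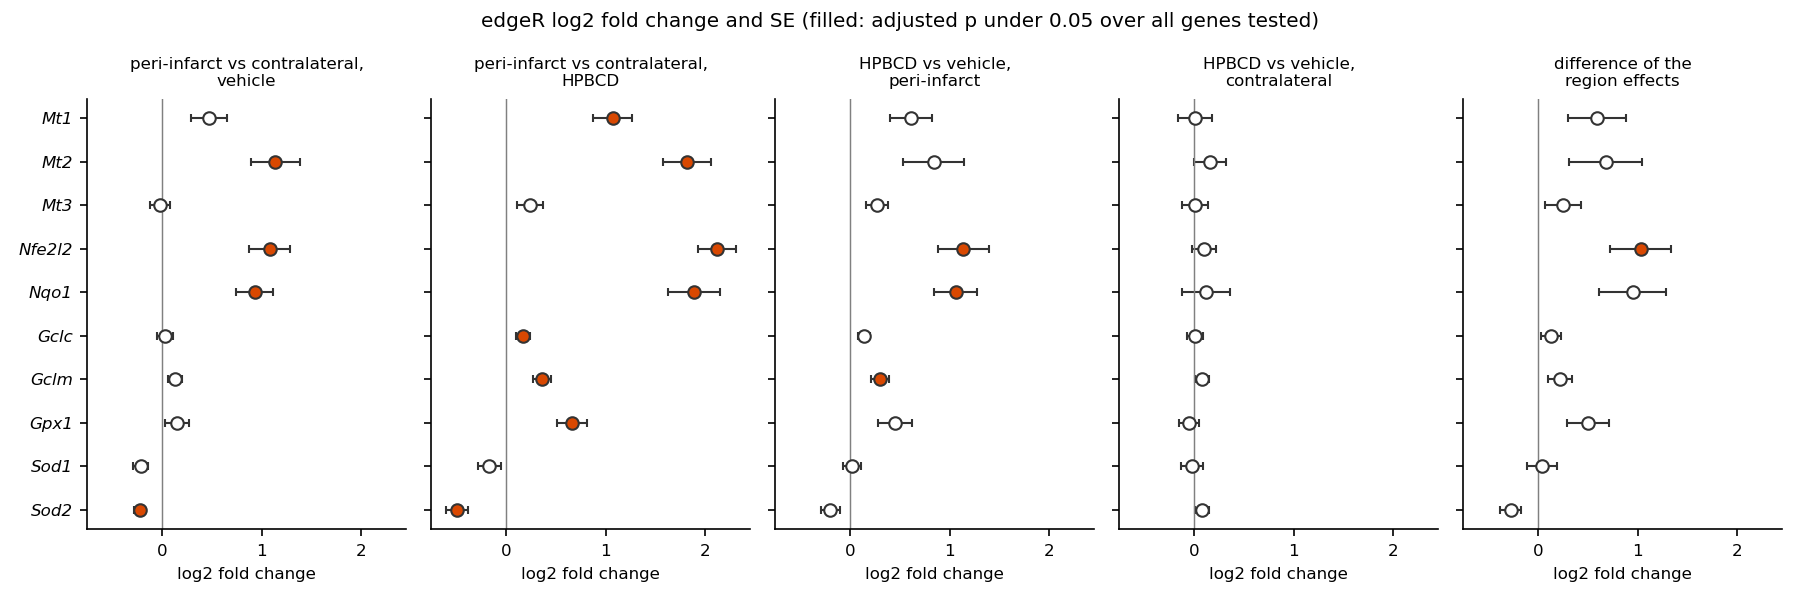
Log2 fold change (x axis) of each gene in 5 comparisons, with its SE, from edgeR. Filled points passed an adjusted p of 0.05 over all genes tested. The values of Nfe2l2, Nqo1, Mt2 and Mt1 lie to the right in both region comparisons, those of Sod2 to the left, and all 10 lie near 0 between the treatments in contralateral tissue.

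Mt2 was the metallothionein that differed most between the regions. In vehicle mice it was at 47.8, 48.3, 49.9, 38.0 and 41.7 CPM in contralateral replicates 1 to 5 and at 80.5, 49.4, 155, 127 and 87.8 CPM in the peri-infarct libraries of the same animals. In HPBCD mice it was at 58.7, 34.0, 58.1, 40.6 and 62.1 CPM in contralateral and at 158, 95.2, 176, 256 and 214 CPM in peri-infarct tissue. The level was higher on the peri-infarct side in all 10 animals. Vehicle animal 2 differed by a factor of 1.02 only, which makes the vehicle groups touch (49.4 against a contralateral maximum of 49.9 CPM), while the HPBCD groups did not overlap. The log2 fold change was 1.14 (SE 0.25, edgeR adjusted p = 0.00974), or 2.2-fold, in vehicle mice. In HPBCD mice it was 1.82 (SE 0.24, adjusted p = 3.76e-05), or 3.53-fold. Both calls held in all alternative fits.

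Mt1, the gene next to it, followed Mt2 with smaller differences. Its levels in vehicle mice were 119, 125, 125, 78.8 and 88.6 CPM in contralateral and 136, 109.5, 207, 160.2 and 135 CPM in peri-infarct replicates 1 to 5. HPBCD mice had 125, 76.0, 119, 93.7 and 130.1 CPM in contralateral and 191, 140.5, 252, 306 and 255 CPM in peri-infarct tissue. The vehicle groups overlapped, with vehicle animal 2 lower on the peri-infarct side (0.876 of its contralateral level), and the HPBCD groups did not. In vehicle mice the log2 fold change of 0.47 (SE 0.18) did not pass (edgeR adjusted p = 0.0849), and without vehicle peri-infarct replicate 2 it was 0.56 and passed (adjusted p = 0.0399). That library also had the lowest reactive astrocyte sum of its group, 749.6 CPM. In HPBCD mice Mt1 rose by 1.07 on the log2 scale (SE 0.20, adjusted p = 0.000539), or 2.1-fold.

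Mt3, the brain form, did not pass in either region comparison. It was at 163, 193, 179.8, 134 and 169 CPM in vehicle contralateral and 177, 156, 188, 164 and 150.2 CPM in vehicle peri-infarct replicates 1 to 5. In HPBCD mice the values were 211, 137, 152, 153 and 197 CPM in contralateral and 179, 166, 209, 229.9 and 226 CPM in peri-infarct tissue. All groups overlapped. The log2 fold change between regions was -0.02 (SE 0.10, edgeR adjusted p = 0.928) in vehicle and 0.24 (SE 0.13, adjusted p = 0.139) in HPBCD mice, and the latter passed without HPBCD contralateral replicate 1 (0.33, adjusted p = 0.0479). It also passed with limma voom (adjusted p = 0.0124) and with a trend of each library over transcript length removed, in the fit with the replicate block (0.39, adjusted p = 0.00305).

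The ratios between the 3 genes are given as a description, with no test. The ratio of Mt2 to Mt1 CPM was 0.428 ± 0.045 (SD, n = 5) in vehicle contralateral, 0.463 ± 0.022 in HPBCD contralateral, 0.647 ± 0.13 in vehicle peri-infarct and 0.775 ± 0.081 in HPBCD peri-infarct libraries. In HPBCD mice the lowest peri-infarct ratio, 0.677, lay above the highest contralateral one, 0.488, while the vehicle regions overlapped (0.452 against 0.482). The ratio of Mt3 to Mt1 CPM was lower on the peri-infarct side, at 1.59 ± 0.22 and 1.15 ± 0.21 in vehicle mice, where the regions overlapped, and at 1.58 ± 0.2 and 0.916 ± 0.16 in HPBCD mice, where they did not. Per kilobase of coding transcript (mean length 484 bp for Mt3, 756 bp for Mt1 and 450 bp for Mt2), the level of Mt3 in vehicle contralateral tissue was 346 ± 45 CPM per kb, that of Mt1 142 ± 29 and that of Mt2 100.4 ± 11. Mt3 also stood above Mt1 per kb of all exons joined in both contralateral groups (157 against 86.0 in vehicle and 160 against 87.3 in HPBCD mice). In HPBCD peri-infarct tissue the lengths decided the order: Mt3 was at 417 ± 59 and Mt2 at 399.8 ± 135 CPM per kb of coding transcript, within their spread, but Mt2 was at 306 and Mt3 at 189 CPM per kb of all exons joined.

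**Figure D3:**
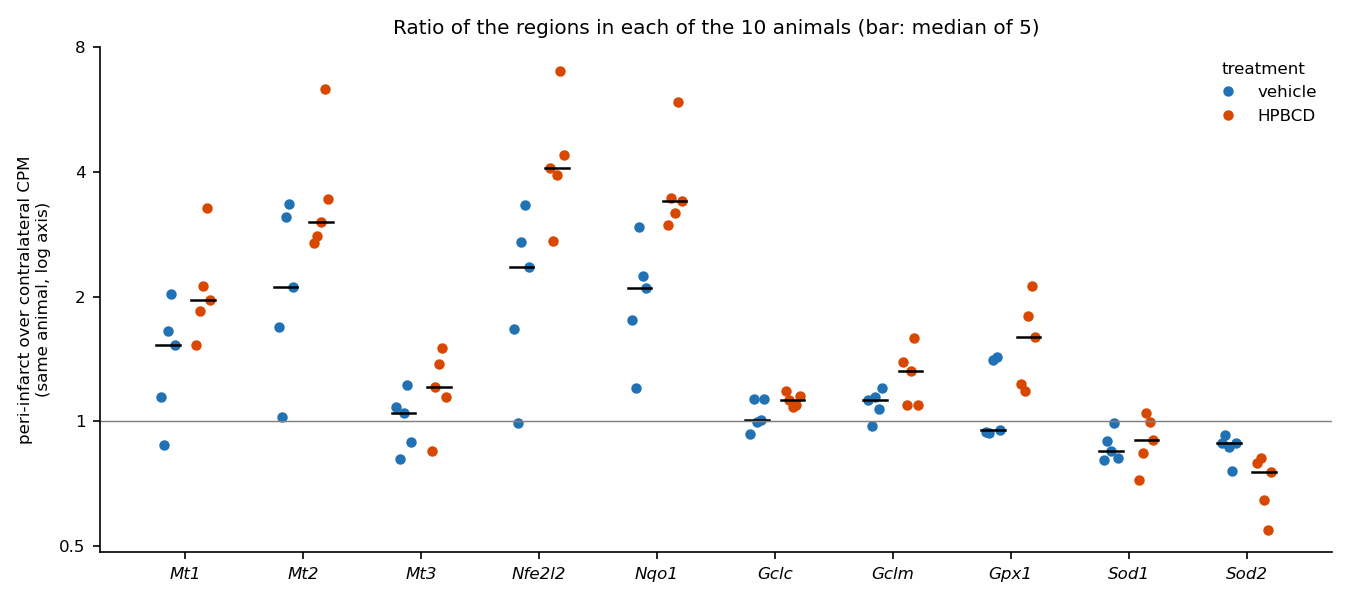
Peri-infarct over contralateral CPM in the same animal (y axis, log scale) for each gene, in 5 vehicle and 5 HPBCD mice, with the median as a bar. Mt2 and Nqo1 lie above 1 in all 10 animals and Sod2 below 1 in all 10. The medians of Nfe2l2 are 2.36 in vehicle and 4.08 in HPBCD mice.

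Across the 20 libraries, log2 levels of Mt1 and Mt2 correlated with r = 0.96, and with 0.92 once each group mean was taken away, whereas Mt3 had r = 0.79 with Mt1 and 0.66 with Mt2. The genes most alike to Mt2 were Cd63 (r = 0.989, and 0.971 for deviations from the group means), Rnaset2a (0.985 and 0.947) and Apoe (0.981 and 0.943). For Mt1 they were Gng5 (0.983 and 0.973), Cdk4 (0.969 and 0.929) and S100a1 (0.969 and 0.931). Those most alike to Mt3 were Rpl11 (0.950 and 0.940), Ctla2a (0.945 and 0.928) and Rps28 (0.941 and 0.919), 2 of them ribosomal protein genes. Mt2 had r = 0.93 with the summed reactive astrocyte markers and 0.96 with the summed microglia and macrophage markers, and 0.86 and 0.89 within groups. The corresponding values of Mt3 were 0.46, 0.52, 0.41 and 0.54. With the summed neuron markers Mt2 had r = -0.93 (-0.69 within groups) and Mt3 -0.55 (-0.42). These are descriptions over 20 libraries that share groups, animals and library make-up, and carry no test.

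Nfe2l2 had the largest region difference of the 10 genes in HPBCD mice. Contralateral libraries were at 15.7, 18.4, 15.8, 13.3 and 13.5 CPM in vehicle and at 14.9, 16.5, 20.3, 15.1 and 15.9 CPM in HPBCD replicates 1 to 5. The peri-infarct libraries were at 26.2, 18.2, 42.9, 44.0 and 31.8 CPM in vehicle and at 60.6, 45.0, 79.7, 105 and 69.9 CPM in HPBCD mice. Every HPBCD peri-infarct library lay above every other library, and vehicle animal 2 again had no difference between its sides (18.2 and 18.4 CPM). Nfe2l2 rose 2.11-fold in vehicle mice (log2 1.08, SE 0.21, edgeR adjusted p = 0.00685) and 4.35-fold in HPBCD mice (log2 2.12, SE 0.19, adjusted p = 2.13e-06). Across the 20 libraries Nfe2l2 had r = 0.95 with the reactive astrocyte sum, 0.95 with the microglia and macrophage sum and -0.96 with the neuron sum, and 0.84, 0.83 and -0.78 within groups. These are levels of the messenger, while NRF2 is known to be controlled largely as a protein, which was not measured here.

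Nqo1, a standard NRF2 target, was the lowest of the 10 per kilobase in all 4 groups. It was at 4.12, 6.38, 2.96, 4.95 and 4.77 CPM in vehicle contralateral and 7.24, 7.69, 8.70, 11.1 and 10 CPM in vehicle peri-infarct replicates 1 to 5. In HPBCD mice it was at 4.14, 3.63, 7.79, 4.41 and 5.47 CPM in contralateral and 12.3, 12.6, 24.8, 25.9 and 18.6 CPM in peri-infarct tissue. The regions did not overlap in either treatment. HPBCD contralateral replicate 3, also high in ependymal markers, had the highest contralateral level. Nqo1 rose by 0.93 (SE 0.19, edgeR adjusted p = 0.00826) in vehicle and by 1.89 (SE 0.26, adjusted p = 5.31e-05) in HPBCD mice on the log2 scale, or 1.91-fold and 3.7-fold. Over the 20 libraries it had r = 0.89 with the fibroblast and meninges sum and 0.88 with the reactive astrocyte sum. With the microglia and macrophage sum r was 0.87 and with the neuron sum -0.92. Within groups these were 0.66, 0.29, 0.32 and -0.52.

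The subunits of glutamate-cysteine ligase moved far less. Gclm was at 54.3 to 59.6 CPM in vehicle contralateral, 53.4 to 65.2 CPM in vehicle peri-infarct, 51.4 to 64.3 CPM in HPBCD contralateral and 68.5 to 89.1 CPM in HPBCD peri-infarct libraries. It did not pass in vehicle mice (log2 0.13, SE 0.07, edgeR adjusted p = 0.19) and rose 1.29-fold in HPBCD mice (log2 0.36, SE 0.09, adjusted p = 0.00516). Gclc was at 49.9 to 69.0, 56.5 to 64.3, 56.4 to 61.8 and 64.5 to 69.3 CPM in the same order of groups. Its HPBCD regions did not overlap, since both groups were tight (SD 2.15 and 1.93 CPM), and it rose by 0.17 (SE 0.07, adjusted p = 0.0407), or 1.13-fold, with no call in vehicle mice (0.03, adjusted p = 0.824). The call of Gclc held in only 5 of 20 alternatives. It was lost with DESeq2 (adjusted p = 0.0548), RLE factors (adjusted p = 0.0648), no filter (adjusted p = 0.406) and the replicate block (adjusted p = 0.0634), without any 1 library other than HPBCD peri-infarct replicate 4 (adjusted p 0.0623 to 0.0978), and when the length trend was removed in the block fit (0.15, adjusted p = 0.0774), where Gclm, at 0.35, kept its call. A length trend that was not centred in each library also shifted the scaling, and took the median of all genes from 0.03 to -0.20 between these regions. In that fit Gclm was at 0.12 (adjusted p = 0.261) and Gclc at -0.09 (adjusted p = 0.248), both above that median.

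Among the enzymes of peroxide and superoxide, directions differed by gene. Gpx1 was at 77.5, 69.5, 66.3, 57.3 and 66.6 CPM in vehicle contralateral and at 73.0, 65.3, 93.4, 82.0 and 63.5 CPM in vehicle peri-infarct replicates 1 to 5, and only 2 of 5 vehicle animals were higher on the peri-infarct side. In HPBCD mice it was at 77.8, 56.7, 60.8, 65.0 and 68.0 CPM in contralateral and at 95.6, 67.2, 109.3, 138 and 109 CPM in peri-infarct tissue, higher in all 5 animals, although the groups overlapped. Gpx1 did not pass in vehicle mice (log2 0.15, SE 0.12, edgeR adjusted p = 0.391) and rose 1.58-fold in HPBCD mice (log2 0.66, SE 0.15, adjusted p = 0.00273).

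Sod2 was the gene that fell. It was at 183, 170.4, 167, 196 and 180.3 CPM in vehicle contralateral and at 162, 158, 145, 148 and 159.5 CPM in vehicle peri-infarct replicates 1 to 5. HPBCD mice had 178, 194, 201, 201.5 and 177 CPM in contralateral and 141, 158, 129.9, 110.4 and 134 CPM in peri-infarct tissue. The level was lower on the peri-infarct side in all 10 animals, and the regions did not overlap in either treatment. The log2 difference in vehicle mice was -0.23 (SE 0.06, adjusted p = 0.0281 by edgeR), and blocking on the animal (the replicate block) lost the call (adjusted p = 0.0511). So did no filter (adjusted p = 0.0525), all 4 groups in 1 fit (adjusted p = 0.0639) and leaving out vehicle peri-infarct replicate 3, 4 or 5 or vehicle contralateral replicate 1, 2 or 5 (adjusted p 0.0503 to 0.0803). In HPBCD mice it fell by 0.50 (SE 0.11, adjusted p = 0.00166). Across the 20 libraries Sod2 had r = 0.95 with the summed neuron markers, -0.92 with the microglia and macrophage sum and -0.90 with the reactive astrocyte sum, and 0.76, -0.68 and -0.53 once group means were taken away.

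Sod1 did not pass in either region comparison, at log2 -0.22 (SE 0.08, adjusted p = 0.0915 by edgeR) in vehicle and log2 -0.17 (SE 0.12, adjusted p = 0.236) in HPBCD mice. Its means were 309 ± 31 CPM in vehicle contralateral, 268 ± 18 in vehicle peri-infarct, 306 ± 48 in HPBCD contralateral and 273 ± 31 in HPBCD peri-infarct tissue, with the SD over 5 libraries. All 5 vehicle animals were lower on the peri-infarct side, as were 4 of 5 HPBCD animals. Vehicle contralateral replicate 4, at 256.5 CPM, lay below the other 4 (309.9 to 333 CPM), and without it the vehicle value was -0.28 and passed (adjusted p = 0.016).

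The next question was whether peri-infarct tissue differed between the treatments. By the labels, Nfe2l2, Nqo1 and Gclm were higher in HPBCD mice and no gene of the 10 was called lower, where 21.4% of 16224 genes were called, 12.4% higher and 9% lower. Nfe2l2 was at 72.1 ± 23 CPM against 32.6 ± 11 (SD, n = 5), 2.2-fold higher (log2 1.14, SE 0.26, edgeR adjusted p = 0.0181). Nqo1 was at 18.8 ± 6.5 against 8.94 ± 1.6 CPM, 2.09-fold higher (log2 1.06, SE 0.22, adjusted p = 0.015). Gclm was at 76.3 ± 8.9 against 61.6 ± 4.8 CPM, 1.23-fold higher (log2 0.30, SE 0.09, adjusted p = 0.0369). The call of Gclm was lost with no filter (adjusted p = 0.0635), with the uncentred length trend removed (adjusted p = 0.0871) and without vehicle peri-infarct replicate 1, 2, 4 or 5 or HPBCD peri-infarct replicate 3 or 4 (adjusted p 0.0525 to 0.0932). None of these 3 overlapped between the treatments, and neither did Gclc, which did not pass (log2 0.14, adjusted p = 0.119). The share of all genes without overlap was not counted, here or in the other comparisons, so no overlap is a description only.

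The metallothioneins stood just outside the threshold in that comparison. Mt1 was at 229 ± 64 CPM in HPBCD and 149.5 ± 37 in vehicle peri-infarct tissue (log2 0.61, SE 0.21, edgeR adjusted p = 0.0585). Mt2 was at 179.7 ± 61 against 99.96 ± 41 CPM (log2 0.84, SE 0.31, adjusted p = 0.0692), Mt3 at 202 ± 29 against 167 ± 16 CPM (log2 0.27, SE 0.11, adjusted p = 0.0901) and Gpx1 at 104 ± 26 against 75.4 ± 12 CPM (log2 0.45, SE 0.17, adjusted p = 0.0736). The groups of all 4 overlapped. Sod1 (log2 0.02, SE 0.09, adjusted p = 0.908) and Sod2 (log2 -0.20, SE 0.10, adjusted p = 0.143) did not pass.

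How many of the 10 were called here depended on the fit and on single libraries, and the calls over all genes moved too. Mt1, Mt2 and Gpx1 passed when all 4 groups shared 1 fit (6 of the 10 called, beside 4970 of 16758 genes over all). DESeq2 called 5 (4719 of 17942) and limma voom 8 (6012 of 16224), against 3471 of 16224 in the main fit. Without HPBCD peri-infarct replicate 2, the lowest of its group in 7 of the 10 genes, 8 were called, beside 5339 of 16428 genes over all. Without HPBCD peri-infarct replicate 3, the library high in ependymal markers, only Nqo1 was called (Nfe2l2 at adjusted p = 0.0504), while the calls over all genes dropped from 3471 to 823. Without vehicle peri-infarct replicate 3 the count was 6, beside 4687 of 16439 genes over all. Nqo1 passed in all of these fits.

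In contralateral tissue no gene of the 10 was called between the treatments, and none had an unadjusted p under 0.05. The edgeR test called 0% of 15469 genes there, with 1224 at an unadjusted p under 0.05, and DESeq2 and limma voom also called 0 of the 10. The log2 fold changes of the 10 lay between -0.05 (Gpx1, SE 0.10) and 0.16 (Mt2, SE 0.16), and the smallest adjusted p was 0.815 (Sod2). Nqo1 had the widest error, at 0.12 with an SE of 0.24. Every gene of the 10 overlapped between the treatments.

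The last comparison asked whether the region difference itself differed between the treatments. It did for Nfe2l2 among the 10, with a region difference larger in HPBCD mice by a log2 value of 1.03 (SE 0.31, adjusted p = 0.0406 by edgeR), where 9.41% of 16758 genes were called, 5.03% higher and 4.38% lower. The call was close to the threshold. It read 1.04 with an adjusted p of 0.0537 with the replicate block, and it was lost without any 1 of 12 of the 20 libraries (vehicle peri-infarct replicates 1, 2 and 5, vehicle contralateral replicates 1, 2 and 3, HPBCD peri-infarct replicates 3 and 4, and HPBCD contralateral replicates 1, 2, 4 and 5). Without HPBCD contralateral replicate 4, the shallowest library and the one with the highest shares of read pairs without a feature and of ambiguous pairs, it was at 1.00 (adjusted p = 0.0692), and the calls over all genes went from 1577 to 704. Leaving out other single libraries gave 529 to 3121 calls, so that fall was not particular to this library. Nqo1 was at 0.95 (SE 0.34, adjusted p = 0.0805) and passed with the replicate block (0.90, adjusted p = 0.0431). The values of Mt1 (0.59, adjusted p = 0.176), Mt2 (0.68, adjusted p = 0.226), Gpx1 (0.50, adjusted p = 0.119) and Sod2 (-0.28, adjusted p = 0.106) did not pass. Neither did those of Gclm (0.22, edgeR adjusted p = 0.211), Gclc (0.13, adjusted p = 0.421), Mt3 (0.25, adjusted p = 0.357) and Sod1 (0.04, adjusted p = 0.891).

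Genes around the metallothioneins in zinc handling moved in both directions. Of 21 zinc genes, 6 rose and 1 fell in vehicle peri-infarct tissue, where 10.5% of all genes were called higher and 9.7% lower, and 8 rose and 4 fell in that of HPBCD mice, a share of the list close to the 54.6% of all genes called there. The list median was 0.12 in both, beside 0.01 and 0.03 over all genes. Mtf1, the zinc sensor that acts on metallothionein genes, did not pass (log2 0.15, edgeR adjusted p = 0.34 in vehicle and 0.25, adjusted p = 0.107 in HPBCD mice). Slc30a1, the zinc exporter that MTF1 also acts on, passed in HPBCD mice (0.36, adjusted p = 0.00454) and not in vehicle mice (0.20, adjusted p = 0.088), and the test of the difference did not pass (0.15, adjusted p = 0.429). Counted among the rises is the zinc importer gene Slc39a4, at 0.49 ± 0.28 and 2.32 ± 0.59 CPM in vehicle contralateral and peri-infarct tissue and at 0.434 ± 0.32 and 5.45 ± 1.3 CPM in HPBCD mice. It passed the filter only through the peri-infarct libraries and was near the floor of 3 counts on the other side, so its calls carry no weight of their own. Slc30a3, which loads zinc into synaptic vesicles of neurons, fell from 70.9 to 33.2 CPM in HPBCD mice (log2 -1.09, adjusted p = 0.0011). It was also lower than in vehicle peri-infarct tissue (log2 -1.16, adjusted p = 0.0136), and its region difference differed between the treatments (-1.03, adjusted p = 0.0384). In peri-infarct tissue between the treatments 2 of the 21 were higher and 4 lower, beside 12.4% and 9% of all genes, and the median log2 was 0.02 against 0.01 over all genes.

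The partners and inhibitors of NRF2 included genes that rose and genes that fell. Of 10, 1 rose and 3 fell in vehicle peri-infarct tissue (10.5% and 9.7% of all genes). In HPBCD mice 3 rose and 3 fell, again close to the 54.6% of all genes called, with list medians of -0.02 and -0.10. The small MAF genes Mafk (log2 0.55, edgeR adjusted p = 0.0151 in vehicle and 1.11, adjusted p = 1.69e-05 in HPBCD mice) and Maff (2.10, adjusted p = 4.11e-05 in HPBCD mice) rose. The other small MAF gene of the list, Mafg, did not pass (0.14, adjusted p = 0.125 in vehicle and -0.02, adjusted p = 0.847 in HPBCD mice). Bach1, which encodes a repressor of NRF2 targets, rose in HPBCD mice (1.00, adjusted p = 0.000163). In vehicle mice Maff (0.83, edgeR adjusted p = 0.0901) and Bach1 (0.44, adjusted p = 0.0867) did not pass. The test of the difference did not pass for either (Maff 1.27, adjusted p = 0.073, and Bach1 0.54, adjusted p = 0.151). Keap1 fell by 0.22 (adjusted p = 0.0449) in vehicle and by 0.28 (adjusted p = 0.00521) in HPBCD mice. Maff (0.95, adjusted p = 0.0474) and Bach1 (0.61, adjusted p = 0.0439) were higher in HPBCD than in vehicle peri-infarct tissue.

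Of 18 other NRF2 targets, 5 rose and 1 fell in vehicle peri-infarct tissue, 14 rose and 2 fell in that of HPBCD mice, and 10 were higher and none lower in HPBCD than in vehicle peri-infarct tissue. Their median log2 values in these comparisons were 0.27, 0.61 and 0.32, beside 0.01, 0.03 and 0.01 over all genes, of which 10.5%, 30.3% and 12.4% were called higher. Hmox1, the heme oxygenase gene, rose from 3.58 to 8.65 CPM in vehicle (log2 1.26, edgeR adjusted p = 0.0123) and from 3.79 to 17.1 CPM in HPBCD mice (2.17, adjusted p = 3.12e-06). Slc7a11, which imports cystine for glutathione, rose by 0.89 (adjusted p = 0.0178) and 2.13 (adjusted p = 5.66e-06), and its region difference was larger in HPBCD mice by 1.23 (adjusted p = 0.0294). Osgin1 also passed the filter only through the peri-infarct libraries, so its call in HPBCD mice (0.238 ± 0.19 and 2.72 ± 0.91 CPM) carries no weight of its own either. In vehicle mice it was at 1.33 (adjusted p = 0.0547), and the test of the difference did not pass (2.06, adjusted p = 0.0631). Srxn1, the sulfiredoxin gene, fell in both, by 0.23 (adjusted p = 0.0437) and 0.55 (adjusted p = 3.55e-05). In the difference of the region effects, where 5.03% of all genes were called higher and 4.38% lower, 5 of the 18 were called higher, the iron storage genes Ftl1 (0.83, adjusted p = 0.0388) and Fth1 (0.78, adjusted p = 0.0319) among them, and 1 lower (Srxn1, -0.33, adjusted p = 0.0334).

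Glutathione enzyme genes split. Of 20, 2 rose and 7 fell in vehicle peri-infarct tissue, where 10.5% of all genes were called higher and 9.7% lower, and 9 rose and 8 fell in that of HPBCD mice, where these shares were 30.3% and 24.3%. The list medians were -0.15 and 0.22. The rises included Gpx3, the secreted glutathione peroxidase (log2 1.57, edgeR adjusted p = 0.0114 in vehicle and 3.38, adjusted p = 9.12e-06 in HPBCD mice), and the microsomal transferase gene Mgst1 (1.43, adjusted p = 0.00397 and 2.80, adjusted p = 1.07e-06). The related Mgst3 fell, from 99.0 to 67.6 CPM (-0.56, adjusted p = 0.00297) and from 106 to 42.2 CPM (-1.33, adjusted p = 1.95e-06). All 3 differed between treatments in their region difference (Gpx3 1.80, adjusted p = 0.0438, Mgst1 1.36, adjusted p = 0.0264, and Mgst3 -0.78, adjusted p = 0.0144).

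Among 17 other superoxide, peroxide and thioredoxin genes, 5 rose and 3 fell in vehicle and 10 rose and 3 fell in HPBCD peri-infarct tissue, beside the same shares of all genes, with list medians of 0.01 and 0.37. Prdx6, a peroxiredoxin gene strong in astrocytes, rose from 172 to 291 CPM (log2 0.74, edgeR adjusted p = 0.0189) and from 154 to 411 CPM (1.41, adjusted p = 4e-06). The peroxiredoxin gene Prdx5 (-0.48, adjusted p = 0.00768 and -0.62, adjusted p = 0.000241) and the thioredoxin gene Txn2 (-0.31, adjusted p = 0.0121 and -0.39, adjusted p = 0.0033) fell in both treatments. Txnip, whose product binds and inhibits thioredoxin, rose by 0.82 (adjusted p = 0.00991) and 2.27 (adjusted p = 2.82e-06), and its region difference was larger in HPBCD mice by 1.43 (adjusted p = 0.0156). On the side that makes superoxide, the phagocyte NADPH oxidase, all 6 genes that passed the filter (of 8 listed) rose in the peri-infarct tissue of both treatments. Cybb rose from 0.625 to 14.1 CPM (4.50, adjusted p = 0.00264) and from 0.996 to 32.0 CPM (5.06, adjusted p = 2.12e-06). CYBB is the catalytic subunit and is known from phagocytes, whose markers were also higher.

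**Figure D4:**
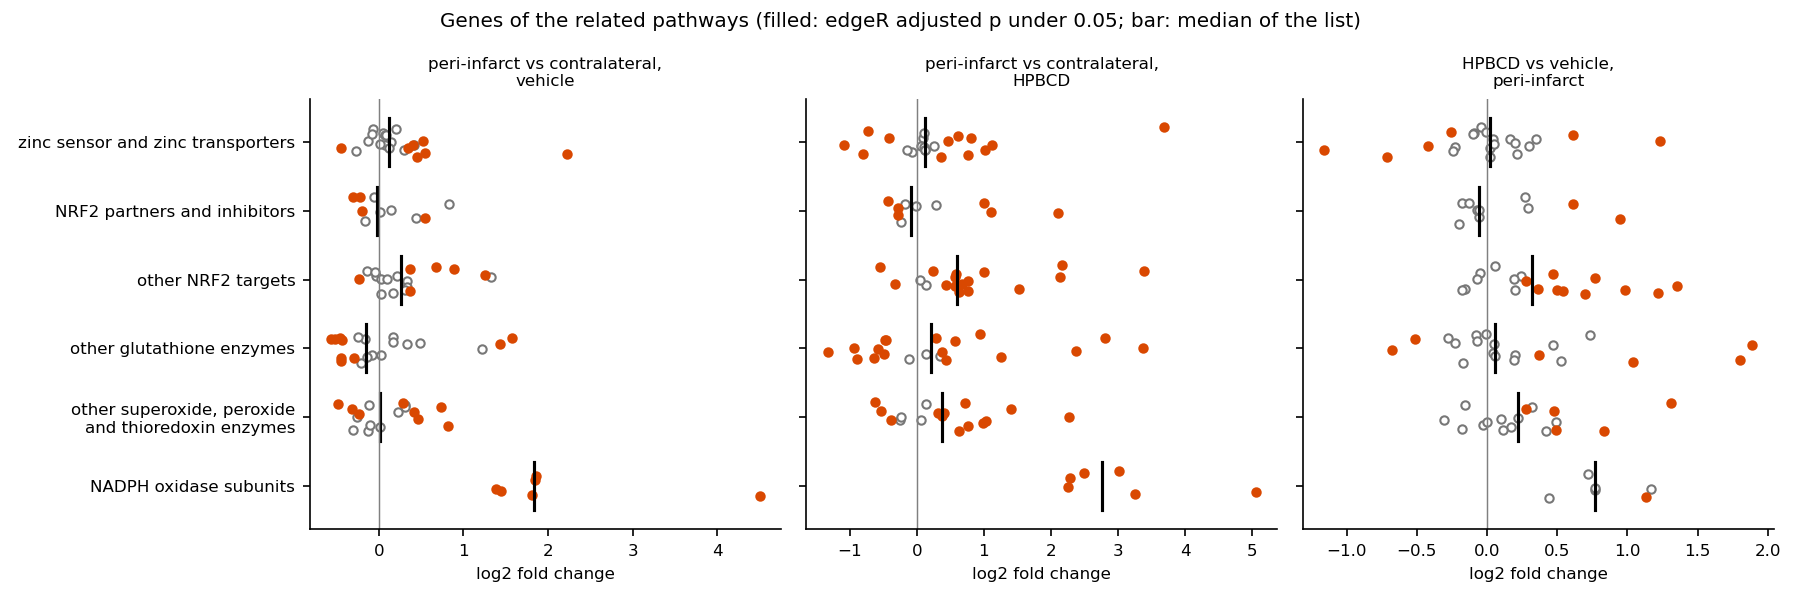
Log2 fold change (x axis) of each gene of 6 related lists (y axis) in 3 comparisons. Filled points passed an edgeR adjusted p of 0.05 over all genes tested, and bars are list medians, for example 1.83 and 2.76 for the NADPH oxidase subunits in the region comparisons of vehicle and HPBCD mice. The lists of zinc and glutathione genes hold filled points on both sides of 0.

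In contralateral tissue none of the 6 lists had a called gene between the treatments. Gsr, Gstm1, Gsta4 and Txnrd1 stand in 2 of the lists and are counted in each.

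**Figure D5:**
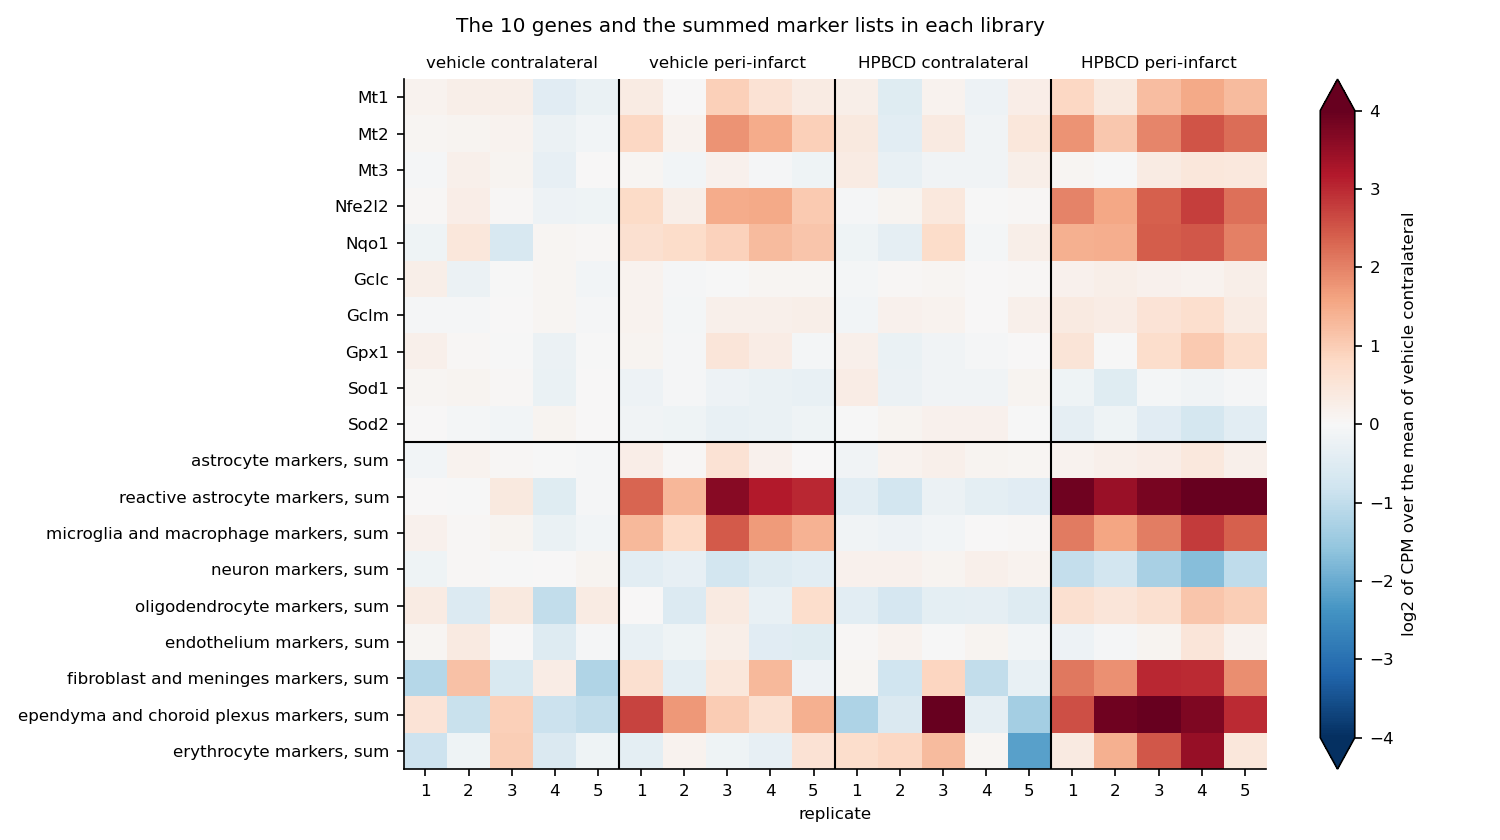
Log2 of the CPM over the mean of the vehicle contralateral libraries (colour) for the 10 genes and for the summed markers of 9 cell types in each library (x axis, replicates 1 to 5 of 4 groups). Vehicle peri-infarct replicate 2 is palest of its group in Mt1, Mt2, Nfe2l2 and the reactive astrocyte and microglia sums. HPBCD peri-infarct replicate 4 has the highest values in them, although colours beyond the end of the scale look alike.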

How the data were processed

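The authors prepared stranded mRNA libraries, trimmed the read pairs with Trimmomatic 0.32, aligned them to GRCm38 with STAR 2.5.2b and ran htseq-count. What they deposited are unnormalized counts of read pairs per Ensembl gene, in a table for each library. The sources used here do not give the annotation release or the strand option. Symbols come from GENCODE M21, which held 45229 (98.16%) of the 46078 genes and 99.933% of the gene counts. The tests and library sizes leave out the 5 summary lines at the end of each table. The share of read pairs without a feature was 4.39% to 5.86% and that of ambiguous pairs 3.94% to 4.16% in 19 libraries. HPBCD contralateral replicate 4, also the shallowest, stood apart at 9.5% and 8.03%. Pairs that did not align uniquely made up 16.58% to 24.3%. Reads that fit more than 1 gene copy were thus not counted, and the read pairs carry no molecular identifiers.

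Comparisons used the quasi-likelihood test of edgeR 4.0.16 in R 4.3.3 with filterByExpr and TMM factors, on the 10 libraries of the groups compared, or on all 20 for the difference of the region effects. These fits held the group only, so the libraries of both regions of an animal were treated as independent. Pairing by animal was among the alternatives. Benjamini-Hochberg adjustment ran over all genes tested, with a threshold of 0.05. CPM are TMM-scaled over the 20 libraries. Correlations used log2 CPM with a prior count of 2. The code was tested on simulated data first. The alternatives were DESeq2 1.42.0, limma 3.58.1 voom with sample quality weights, RLE and upper quartile factors, no filter, a minimum of 10 counts in every library, all 4 groups fitted together, a replicate block and leaving out each library. Removal of a loess trend over transcript length (in the block fit for the regions) was chosen after seeing the data. It was first run without centring the trend, and the centred fit was added after those values were seen. Both are reported.

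The 10 genes and the lists were chosen with earlier results of these data known. Named genes were the 10, up to 3 called rises and 3 called falls per pathway list and comparison with the largest changes, and the 3 genes with the highest Pearson r to each metallothionein. From these, the text gives a selection. Mtf1, Slc30a1 and Mafg are named in addition, after their values were seen. Same-number libraries of the regions share an identifier, taken as the animal, which pairs the regions. Across genes, deviations from the group means correlated within pairs with a mean r of 0.088 (10 pairs, 4 of them over 0.1). Peri-infarct libraries with the same number in different treatments, from different animals, had r of -0.022, 0.190, 0.048, 0.293 and 0.066. These values do not set the pairs apart. Between treatments the number is a name only.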

Additional observations from a re-analysis of the deposited data

Results flagged for a closer look

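Sod1 in vehicle contralateral replicate 4 was at 256.5 CPM, apart from the other 4 libraries of its group by Dixon's test on log2 CPM, although not on CPM itself. Among the 40 sets of 5 libraries tested (10 genes in 4 groups) it was the only one, and chance alone gives about 1 in 20.

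The region difference of Nfe2l2 was larger in HPBCD than in vehicle mice by 1.03 on the log2 scale (edgeR adjusted p = 0.0406, range 0.0119 to 0.0817 over its alternatives). The peri-infarct level was higher in 5 of 5 HPBCD and 4 of 5 vehicle animals.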

How the results depend on the processing

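Of 1090 values of the 10 genes under the alternatives, 954 kept their direction and their side of the threshold, 47 lost a call, 46 gained one and 43 changed sign. In the region comparisons the number of the 10 genes called stayed at 3 to 5 in vehicle and 7 to 9 in HPBCD mice. The calls over all genes ranged from 2000 to 5065 and from 7678 to 10401. In peri-infarct tissue between the treatments it was 5 with DESeq2, 8 with limma voom, 6 with all 4 groups in 1 fit and 1 to 8 with a library left out. For the difference of the region effects it was 2 with DESeq2, 6 with limma voom, 3 with the uncentred length trend removed and the replicate block, and 0 to 4 with a library left out. The calls over all genes moved as well, from 823 to 6012 between the peri-infarct treatments and from 529 to 4110 in that difference. The cause was not tested.

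With the replicate block, the peri-infarct comparison of treatments called 6 of the 10, beside 4375 of 16224 genes over all, but there the numbers do not pair animals. Among the region comparisons and their difference, the pairing by animal changed only the calls of Sod2, Gclc, Nfe2l2 and Nqo1 given above.

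With the centred length trend removed, Mt3 was at 0.19 and Gclc at -0.02 between vehicle regions, Sod1 at -0.06 between peri-infarct treatments and -0.02 in the difference of the region effects, and Mt3 at -0.05 between contralateral treatments. Mt1 passed between vehicle regions (0.59, edgeR adjusted p = 0.0369), and Nfe2l2 did not pass in the difference of the region effects (1.05, adjusted p = 0.0511). Without centring, the median of all genes moved to -0.20 between HPBCD regions and to -0.10 in the difference of the region effects, from 0.03 and 0.01. There Mt3 was at 0.10 and Gclc at -0.11 between vehicle regions, Gclc at -0.09 between HPBCD regions, Sod1 at -0.16 between peri-infarct treatments and -0.13 in the difference of the region effects, and Mt3 at -0.03 between contralateral treatments. With limma voom, Mt1 was at -0.10 and Mt3 at -0.14 between contralateral treatments, and with at least 10 counts in every library Mt3 was at 0.01 between vehicle regions. Leaving out a library gave -0.09 to 0.05 for Mt3 and -0.01 to 0.11 for Gclc between vehicle regions, -0.02 to 0.08 for Sod1 between peri-infarct treatments and -0.02 to 0.14 for Sod1 in the difference of the region effects. Between contralateral treatments it gave -0.08 to 0.12 for Mt1, -0.08 to 0.08 for Mt3, -0.08 to 0.26 for Nqo1, -0.04 to 0.08 for Gclc, -0.12 to 0.01 for Gpx1 and -0.11 to 0.03 for Sod1. Of the values that changed sign, only that of Gclc between HPBCD regions had been called.

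The lowest count of these genes was 50. What limits them is 5 animals a group, bulk tissue with cell type markers that move with region and treatment, and messenger levels without protein or zinc measurements.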
